A study of Mus musculus with 30 samples.

Results

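Outflow tract and right ventricle (OFT-RV), the end of the embryonic heart tube that is built from anterior second heart field cells, were compared between Dgcr8 mutant and wild-type mouse embryos on 8 mRNA arrays, 4 of each genotype. All 20842 genes that could be named on these arrays were examined. They held 19853 protein-coding genes, 321 genes that encode miRNAs and 668 genes of 21 other types. The 8 arrays are part of a series of 30, which also holds mRNA arrays of the anterior second heart field (aSHF) itself and miRNA arrays of both tissues.

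The embryos were taken at embryonic day 9.5 with 19 to 21 somite pairs, and each array carried RNA pooled by genotype from at least 5 litters. The mutants were Mef2c-AHF-Cre/+; Dgcr8 f/f, so that Cre, driven by a Mef2c enhancer of anterior second heart field cells and of the cells they give rise to, deleted Dgcr8 there. The arrays called wild-type were of Dgcr8 f/+ embryos without Cre. They therefore carried a floxed allele, and the presence of Cre and the loss of Dgcr8 cannot be told apart in this comparison. OFT-RV RNA also came from cells that Cre does not reach, such as blood cells, and the labels do not give the share of recombined cells.

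Dgcr8 binds the hairpins in long primary miRNA transcripts and, with the nuclease Drosha, forms the Microprocessor, which cuts these hairpins out as precursors. Dicer then trims a precursor to the short mature miRNA, whose seed, bases 2 to 8, pairs with target mRNAs, which are destabilised. When the Microprocessor lacks Dgcr8, primary transcripts are known to stay uncut and to accumulate, while mature miRNAs decline. An mRNA array reports the longer transcript that carries a hairpin, and a miRNA array reports the mature product, so the 2 kinds of array read opposite ends of the pathway.

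The sequences of the miR-17-92 cluster, a polycistron of proliferating progenitors in which 6 hairpins lie on one transcript, are shown because all of its genes rose. The hairpin of Mir18, at chr14:115043851-115043946 on the plus strand of GRCm38.p6, is given first, with the mature arms that the 2 processing enzymes release in capitals. The mature miRNAs of the cluster follow, 5′ to 3′, with the seed in capitals. All sequences are those of RefSeq.
Mir18 hairpin: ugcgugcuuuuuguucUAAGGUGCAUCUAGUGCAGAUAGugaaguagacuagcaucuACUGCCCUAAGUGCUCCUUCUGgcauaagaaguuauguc
miR-17-5p: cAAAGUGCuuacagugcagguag
miR-20a-5p: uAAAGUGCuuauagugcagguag
miR-18a-5p: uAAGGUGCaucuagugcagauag
miR-19a-3p: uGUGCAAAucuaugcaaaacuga
miR-19b-3p: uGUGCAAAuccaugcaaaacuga
miR-92a-3p: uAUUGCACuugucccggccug
Within the cluster miR-17 and miR-20a share a seed, and so do miR-19a and miR-19b.

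Other genes that rose encode miRNAs with a common seed although they do not all lie in 1 cluster, and these are shown to mark the families that the results turn on. Of the 75 miRNA genes that rose, 68 had an entry in the RefSeq table. Among their brightest mature products, let-7 was represented by 4 genes. The miR-130 and miR-301 family, the miR-30 family, the miR-181 family and the family of miR-17, miR-20a and miR-106b had 3 genes each. These counts leave out Mir30b and Mir30d, which also rose but had no entry. They also leave out Mir301b, whose miR-301b-3p had no entry, and Mir181c, whose brightest product, miR-181c-3p, has another seed.
let-7a-5p: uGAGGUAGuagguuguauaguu
let-7d-5p: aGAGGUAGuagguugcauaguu
let-7f-5p: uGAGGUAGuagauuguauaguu
miR-301a-3p: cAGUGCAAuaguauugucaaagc
miR-130a-3p: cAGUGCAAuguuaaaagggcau
miR-130b-3p: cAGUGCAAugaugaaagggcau
miR-30a-5p: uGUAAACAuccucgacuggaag
miR-30c-5p: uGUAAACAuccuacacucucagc
miR-181a-5p: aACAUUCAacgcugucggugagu
miR-181b-5p: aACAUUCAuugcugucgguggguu
miR-106b-5p: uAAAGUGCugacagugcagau

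The tissue carried the genes known from the heart tube. On the log2 scale, the 24 sarcomere genes were all brighter than the median probe set of the arrays (6.15), with the regulatory light chain Myl2 at 13.30 ± 0.03 and cardiac troponin T, Tnnt2, at 13.04 ± 0.03 (SD, n = 4 wild-type arrays). Isl1, a marker of second heart field cells, stood at 8.23 ± 0.26, and the ventricular factor Irx4 at 8.81 ± 0.03. Blood was present, with the embryonic globin Hbb-bh1 at 13.14 ± 0.14. Above the median probe set were 11602 of all 20842 genes. Fewer hepatic and yolk sac genes (3 of 15) and cranial and skeletal muscle genes (2 of 13) were above it. So were 4 of 14 neural genes and 4 of 14 macrophage and platelet genes. Other lists stood higher, with 13 of 19 neural crest genes, 11 of 15 atrial and inflow genes, 7 of 19 pharyngeal genes and 6 of 12 epicardial genes. The share of neighbouring tissue was not tested. All pairs of arrays correlated at 0.994 to 0.998 over all genes. The first principal component, with 41.1% of the variance, separated the genotypes, at -12.6 to -8.55 for wild-type arrays and 7.89 to 13.5 for mutant arrays. Over protein-coding genes alone the first component (29.1% of the variance) did not separate them.

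Dgcr8, the targeted gene, was lower in every mutant array. Its log2 values were 8.22, 8.06, 7.98 and 8.16 on wild-type arrays 1 to 4 and 7.63, 7.77, 7.73 and 7.65 on mutant arrays 1 to 4. The groups did not overlap, and the fall was 1.33-fold. The exact two-sided permutation p was 0.0286, the smallest that the 70 divisions of 8 arrays allow. By limma, with Benjamini-Hochberg adjustment over every gene tested, the change of -0.41 (SE 0.06) had an adjusted p of 0.00753. It no longer passed when the adjustment covered all 35556 probe sets (0.0570) or protein-coding genes only (0.0592). The labels do not say which exon the probe set reads.

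Across all genes, the change of the tissue was concentrated in miRNA genes. Of 20842 genes 93 passed at an adjusted p under 0.05, which is 0.446% of those tested. Among protein-coding genes 16 passed, or 0.0806%, of which 13 rose and 3 fell. Among miRNA genes 75 passed, or 23.4%, and each of the 75 rose. The remaining 2 genes that passed were the long noncoding RNA genes Mirg and 1700110I01Rik, of 170 lincRNA genes, and none of 64 snoRNA genes, 120 antisense genes and 89 processed transcripts passed by limma. At an unadjusted p under 0.05 these last 3 classes held 7, 0 and 6 genes, against 1216 of all genes. The median change was -0.011 over all genes and 0.047 over miRNA genes, and 11893 of all genes (57.1%) were lower in mutants. No gene fell more than 2-fold, and those that rose more than 2-fold were 45 miRNA genes, Mirg and 2610318N02Rik. In 749 genes, 3.59% of those tested, the genotypes did not overlap, 377 with mutants higher and 372 with mutants lower. The authors' deposited table had 62 genes that passed, and all 62 were among the 93.

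**Figure D1:**
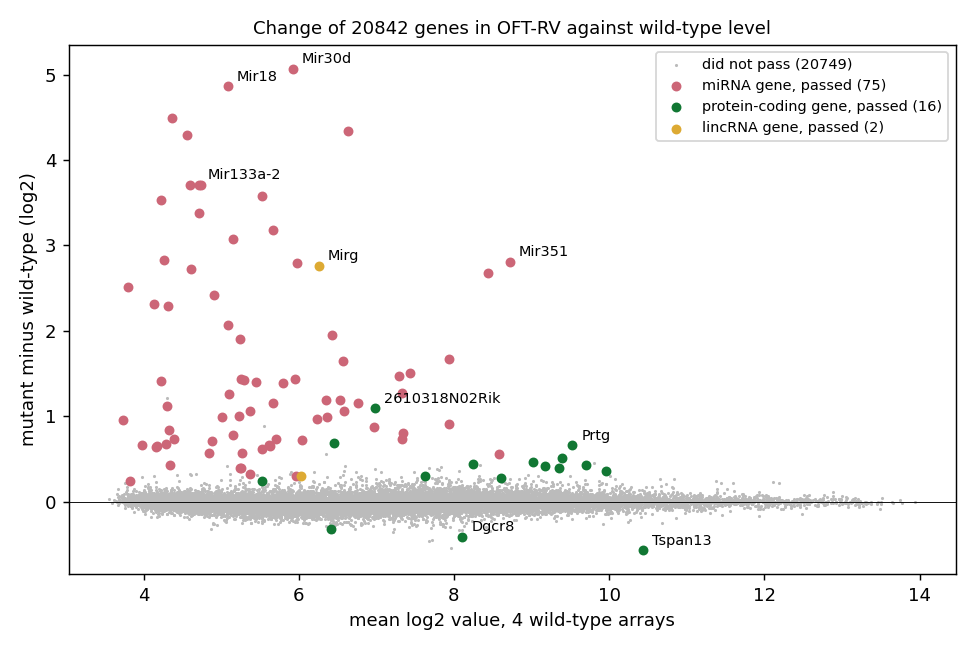
Each point is a gene, with its mean log2 value on the 4 wild-type arrays on the x axis and the mutant minus wild-type difference in log2 on the y axis. The 75 miRNA genes that passed all lie above 0 and reach 5.07, while the 16 protein-coding genes that passed lie between -0.57 and 1.09.

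The miRNA genes that rose started low. Their mean log2 values on wild-type arrays ran from 3.74 to 8.72 with a median of 5.27, and 20 of the 75 were above the median probe set. On mutant arrays their median was 7.15 and 55 were above it. In 26 of them every wild-type array was below that limit and every mutant array above it. The changes ran from 0.24 to 5.07 with a median of 1.19. Of the 75, 45 rose more than 2-fold, 23 more than 4-fold and 13 more than 8-fold. The 246 miRNA genes that did not pass changed by -0.19 to 0.42, and 143 of them were higher. When probe sets whose mean over both genotypes was below the median were left out, 37 miRNA genes passed. That mean includes the mutant arrays, so a gene dim in wild-type tissue could be kept through its rise.

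The miR-17-92 cluster rose as a unit. Mir18 read 4.89, 5.21, 5.20 and 5.06 on the wild-type arrays and 9.97, 9.97, 9.71 and 10.18 on the mutant arrays. Mir17, the first of the cluster, read 5.82, 5.79, 5.65 and 5.40 and then 8.99, 8.77, 8.63 and 9.00. For both genes the groups were far apart, and mutant array 3 was the lowest of the mutants. In the order of the transcript the 6 genes changed by 3.18 (Mir17, SE 0.10), 4.87 (Mir18, SE 0.10), 4.49 (Mir19a, SE 0.11), 4.34 (Mir20a, SE 0.12), 4.29 (Mir19b-1, SE 0.08) and 3.58 (Mir92-1, SE 0.10), so the hairpins at both ends changed least. Each probe set starts from its own level, so these differences compare probe sets and not amounts of RNA. The related cluster on the X chromosome, Mir106a to Mir363, was measured by 5 genes, none of which passed, with changes of -0.00091 to 0.16.

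Rises followed genomic clusters, but not always completely. With miRNA genes grouped when they lay within 10000 bases of each other, 157 genes formed 49 clusters, and 61 of the 75 rises fell in them. In 11 clusters every measured member rose, in 10 some did, and 14 rising genes lay outside any cluster, where 164 miRNA genes were measured. Clusters were defined on GRCm38.p6, to whose miRNA positions the authors' own locations were identical for 1592 of 1603 mature miRNAs.

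Of 3 measured loci of the muscle miRNAs miR-1, miR-133 and miR-206, 2 rose. Both hold a miR-1 gene and a miR-133 gene, which are products of cardiac and skeletal muscle. Mir133a-2 read 4.78, 4.44, 4.81 and 4.81 on wild-type arrays and 8.17, 8.20, 8.39 and 8.92 on mutant arrays, a rise of 3.71 (SE 0.15). Its neighbour Mir1a-1 read 3.82, 3.83, 3.80 and 3.87 and then 4.08, 4.02, 4.08 and 4.10, a rise of 0.24 (SE 0.04, adjusted p = 0.0305), with all 8 values far below the median probe set. At the second locus Mir133a-1 rose by 2.42 (SE 0.08) and Mir1a-2 by 2.83 (SE 0.13). The third locus did not pass, with Mir206 at 0.01 (SE 0.05) and Mir133b at 0.06 (SE 0.07), both named after their values were seen. Mib1, the protein-coding gene in which the second locus lies, changed by 0.031 (SE 0.05) and did not pass. Whether Mib1 and this locus share a strand was not known here.

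The miR-30 genes gave the largest single change of the array. Mir30d read 5.86, 5.84, 5.87 and 6.14 on wild-type arrays and 11.03, 11.06, 10.69 and 11.21 on mutant arrays, a 33.6-fold rise. Its neighbour Mir30b rose by 3.38 (SE 0.16). On other chromosomes Mir30a rose by 2.79 (SE 0.15), Mir30e by 1.39 (SE 0.14) and Mir30c-2 by 1.01 (SE 0.12), whereas Mir30c-1, which shares a locus with Mir30e, changed by 0.00055 and did not pass. Of the miR-181 genes, Mir181b-1 and Mir181a-1 of chromosome 1 rose by 3.70 (SE 0.13) and 2.29 (SE 0.10), Mir181c by 0.73 (SE 0.11) and Mir181a-2 by 0.32 (SE 0.06), while its neighbour Mir181b-2 changed by 0.28 and did not pass.

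On the X chromosome a cluster of 7 genes split. Mir351 read 8.50, 8.57, 8.84 and 8.98 on wild-type arrays and 11.56, 11.40, 11.36 and 11.81 on mutant arrays, a rise of 2.81 (SE 0.12). Mir322 and Mir503, members of the extended miR-15 and miR-16 family that is known to slow the cell cycle, rose by 3.08 (SE 0.13) and 2.68 (SE 0.08). Mir351 and Mir503, at wild-type means of 8.72 and 8.44, were among the 20 of 75 rising genes above the median probe set in wild-type tissue. The other 4 members, Mir450b, Mir450-1, Mir450-2 and Mir542, were higher by 0.07 to 0.30 and did not pass. The 3 let-7 genes of chromosome 13 rose by 1.19 (Mirlet7d, SE 0.10), 0.84 (Mirlet7f-1, SE 0.11) and 0.62 (Mirlet7a-1, SE 0.07).

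**Figure D2:**
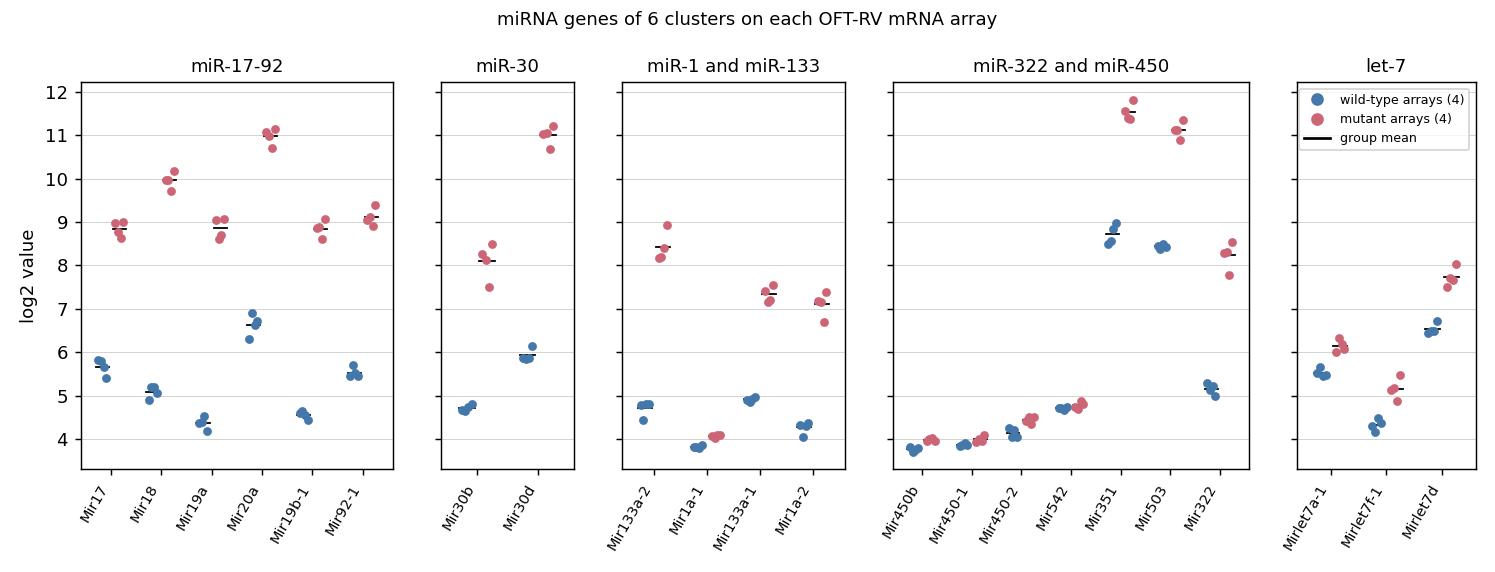
Points are log2 values of single OFT-RV mRNA arrays, 4 wild-type and 4 mutant for each gene, and short lines are group means. The 6 genes of miR-17-92 move together, whereas Mir1a-1 moves by 0.24 beside Mir133a-2 at 3.71, and 4 of the 7 genes around Mir322 stay within 0.30 of wild-type.

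The imprinted Dlk1-Dio3 region of chromosome 12, whose long noncoding RNAs are expressed from the maternal chromosome and carry many hairpins, contributed the most genes. In its larger cluster 18 of 30 measured genes rose and 27 were higher, with a median change of 0.66. In its smaller cluster 5 of 8 rose, led by Mir136 at 3.54 (SE 0.11). Mirg, the long RNA of this region that spans Mir154 and other genes of the larger cluster, read 6.30, 6.21, 5.97 and 6.55 on wild-type arrays and 9.21, 8.76, 8.84 and 9.28 on mutant arrays. It rose by 2.76 (SE 0.13, adjusted p = 2.01e-07), which is 6.79-fold. Meg3, another long RNA of the region, did not pass. It was at 10.72 ± 0.07 in wild-type and 10.77 ± 0.11 in mutant arrays (SD, n = 4), a change of 0.05. Rtl1, the protein-coding gene on which the smaller cluster lies, changed by 0.10 (SE 0.05) and did not pass. Whether Rtl1 and these miRNA genes share a strand was not known here.

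Some host transcripts rose with their miRNA genes and most did not pass. Of the rising miRNA genes 28 lay within another measured gene on either strand, and these hosts numbered 17. Only 19 of the 28 were known to lie on the strand of their host, and for Mib1 and Rtl1 the strand was not known. Of the hosts 3 rose, namely Mirg, 2610318N02Rik and Nr6a1, which lies on the opposite strand from Mir181a-2, where 0.446% of all genes passed. Of the 17 hosts 12 were higher, with a median of 0.064. Among the 12 protein-coding hosts known to be on the same strand the median change was 0.017 and 1 rose. Ska2, a kinetochore gene that hosts Mir301, changed by -0.12 (SE 0.05) while Mir301 rose by 3.70 (SE 0.12). Slit3, an axon guidance gene that hosts Mir218-2, changed by 0.02 (SE 0.06) while Mir218-2 rose by 1.41 (SE 0.10). Mcm7, a subunit of the replicative helicase that hosts Mir106b, changed by 0.08 (SE 0.06), and Mir106b rose by 0.74 (SE 0.11). Dleu2, the noncoding host of Mir15a and Mir16-1, changed by 0.17 (SE 0.05) and did not pass, against 1.19 and 1.44 for its miRNA genes.

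Mature miRNAs did not rise with their genes. Each miRNA gene was joined to its brightest mature miRNA on the OFT-RV miRNA arrays, 3 per genotype. For the 75 genes that rose, 68 of the mature partners were lower in mutants, with a median of -0.47 and a range from -2.05 to 0.28, and none of the mature partners rose. Of all 1908 mature miRNAs tested 984 were lower, with a median of -0.0044, and 7 fell, which is 0.367%. The median wild-type level of the 1908 was only 0.88, so many were too dim to show a fall, and the 2 sets are not alike. The genes that rose are also those with brighter mature partners, at a median of 3.83 against 1.03 for the other 246 genes. Mature partners above 4 in wild-type arrays had a median change of -0.47 beside 36 rising genes. Beside 45 genes that did not pass it was -0.46, so the sizes of the mature declines were close. Of these partners, 34 of 36 and 34 of 45 were lower. A mature miRNA made from several genes counts for each of them. Some, such as miR-92a-3p of Mir92-1 and Mir92-2, enter both sets, so the 2 medians are not independent. Of the 7 mature miRNAs that fell, 2 were the brightest products of genes that rose, miR-134-5p and miR-543-3p, both of the Dlk1-Dio3 region.

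For the miR-17-92 cluster the mature partners changed by -0.59 (miR-18a-5p, SE 0.39) to -0.22 (miR-17-5p, SE 0.29), and none passed by limma. The smallest SE was that of miR-92a-3p, at -0.31 (SE 0.12). Beside all rising genes with a mature partner above 4 the median was -0.47. Values of single arrays are given for the 2 ends of the range. The level of mmu-miR-18a-5p was 7.41, 7.08 and 6.82 on wild-type arrays and 7.14, 6.81 and 5.58 on mutant arrays. The level of mmu-miR-17-5p was 9.17, 8.88 and 8.83 and then 9.21, 8.95 and 8.05. The groups overlapped for both, and the third mutant miRNA array was the lowest. Larger and separate was the fall of mmu-miR-543-3p, which read 2.95, 3.02 and 3.23 on wild-type arrays and 1.35, 1.12 and 1.27 on mutant arrays (change -1.82, SE 0.11, adjusted p = 0.00140). Likewise mmu-miR-134-5p read 6.09, 6.04 and 6.36 and then 4.87, 4.60 and 4.41 (change -1.53, SE 0.15, adjusted p = 0.00974). The count of 7 is loosely fixed, since it was 1 when any one wild-type miRNA array was left out and 3 without mutant miRNA array 2.

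**Figure D3:**
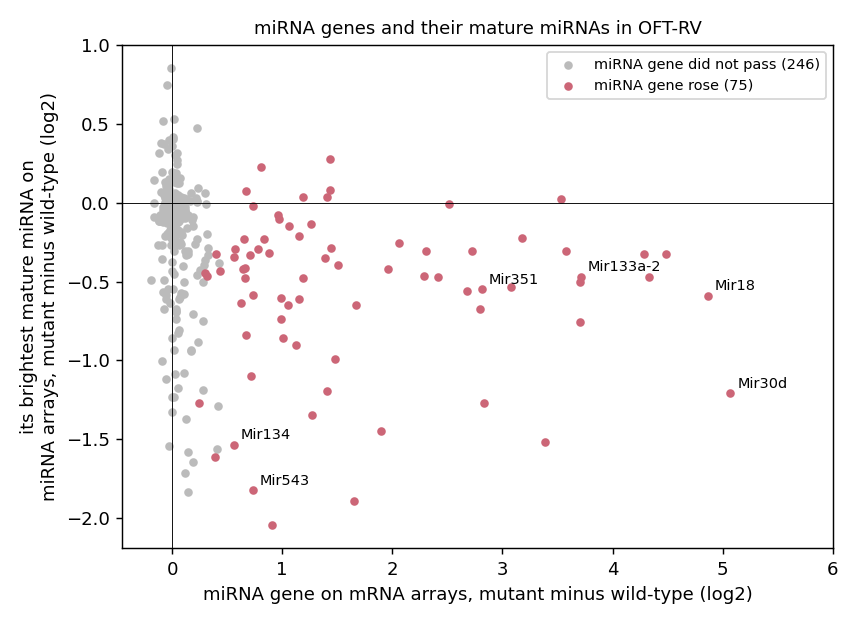
Each point is a miRNA gene, with its mutant minus wild-type change on the mRNA arrays on the x axis and that of its brightest mature miRNA on the miRNA arrays on the y axis, both in log2. Rising genes, 75 in number, lie to the right and mostly below 0, with a median mature change of -0.47.

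Among protein-coding genes, the 2 largest rises lay beside rising miRNA genes. The gene 2610318N02Rik, which spans Mir130b and Mir301b on the same strand, read 7.14, 7.05, 6.76 and 6.97 on wild-type arrays and 8.09, 8.05, 7.93 and 8.22 on mutant arrays. It rose 2.13-fold (change 1.09, SE 0.08, adjusted p = 2.01e-05), between Mir301b at 1.96 (SE 0.14) and Mir130b at 0.30 (SE 0.06). Nanos3, which encodes an RNA-binding protein that germ cells need, lies 2321 bases from Mir181c on GRCm38.p6. It read 6.45, 6.49, 6.54 and 6.34 and then 7.18, 7.23, 6.98 and 7.20, and rose 1.62-fold (change 0.69, SE 0.06, adjusted p = 0.000138). In each of these genes the lowest mutant array exceeded the highest wild-type array. Ak4, a mitochondrial adenylate kinase, lies 69451 bases from Mir101a, and rose by 0.43 (SE 0.07, adjusted p = 0.0132). Nr6a1 spans Mir181a-2 on the opposite strand, and Ppp6c lay 341559 bases from that gene. The 11 remaining protein-coding genes that passed, Dgcr8 included, lay at least 1129452 bases from a rising miRNA gene.

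Prtg and Nr6a1 followed among the firmest calls. Prtg encodes protogenin, an immunoglobulin-type receptor of the early embryo. It read 9.64, 9.64, 9.41 and 9.40 on wild-type arrays and 10.26, 10.23, 10.10 and 10.16 on mutant arrays, a 1.58-fold rise (change 0.66, SE 0.07, adjusted p = 0.000323). Nr6a1 encodes germ cell nuclear factor, an orphan nuclear receptor that represses pluripotency genes. It read 8.34, 8.28, 8.23 and 8.14 and then 8.67, 8.73, 8.65 and 8.73, a 1.36-fold rise (change 0.44, SE 0.05, adjusted p = 0.00121). In both genes every mutant array was above every wild-type array. Polr3g, which encodes the RNA polymerase III subunit found in stem cells, rose by 0.28 (SE 0.05, adjusted p = 0.0305).

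The remaining rises ran from 0.24 to 0.52. Nmt2, which attaches myristate to proteins, rose by 0.52 (SE 0.08), and Acsl4, which activates arachidonic acid, by 0.46 (SE 0.06). Acsl4 stood at 8.91 to 9.13 on wild-type arrays and at 9.40 to 9.56 on mutant arrays. Ppp6c, the catalytic subunit of protein phosphatase 6, rose by 0.40 (SE 0.07), Clcn3, a chloride and proton exchanger of endosomes, by 0.30 (SE 0.04), and Rhebl1, a small GTPase related to Rheb, by 0.24 (SE 0.04). Lcor, a corepressor of nuclear receptors, rose by 0.42 (SE 0.07). Their adjusted p ran from 0.00197 (Acsl4) to 0.0404 (Rhebl1). The long noncoding RNA 1700110I01Rik rose by 0.30 (SE 0.05, adjusted p = 0.0373).

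Ddx3x, an X-linked RNA helicase that acts in translation, read 10.11, 9.90, 9.88 and 9.93 on wild-type arrays and 10.37, 10.33, 10.24 and 10.33 on mutant arrays. It rose by 0.36 (SE 0.06, adjusted p = 0.0160), with wild-type array 1 the highest of its group, and kept its call without that array. Wild-type array 1 was also the lowest for the Y-linked genes Ddx3y, at 5.06 against 7.28 to 7.37 on the other wild-type arrays, and Uty, at 4.31 against 6.87 to 7.21, and the highest for Xist, the RNA that coats the inactive X, at 11.51 against 8.64 to 9.57. On mutant arrays Ddx3y read 7.63, 7.60, 6.74 and 6.26 and Xist 9.35, 9.65, 10.78 and 11.27. Wild-type array 1 and mutant arrays 3 and 4 were thus the high arrays for Xist and the low ones for Ddx3y, and the part of this in the rise of Ddx3x was not tested. None of the 5 sex-linked genes passed. Without wild-type array 1 there were 21 protein-coding genes that passed in place of 16, of which 14 were shared.

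The genes that fell were few. Tspan13, which encodes a tetraspanin of the cell membrane, read 10.49, 10.37, 10.34 and 10.54 on wild-type arrays and 9.78, 9.82, 10.06 and 9.80 on mutant arrays. Its change was -0.57 (SE 0.07, adjusted p = 0.00189), with mutant array 3 above its group but below every wild-type array. Kcnn2, the gene of a small-conductance potassium channel that calcium opens, read 6.48, 6.43, 6.30 and 6.43 and then 6.10, 6.02, 6.09 and 6.17. Its change was -0.31 (SE 0.05, adjusted p = 0.0234). Kcnn2 is close to the median probe set and lost its call without any one of 6 arrays. In bulk tissue such as this, fewer cells of a type and less RNA per cell cannot be told apart.

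**Figure D4:**
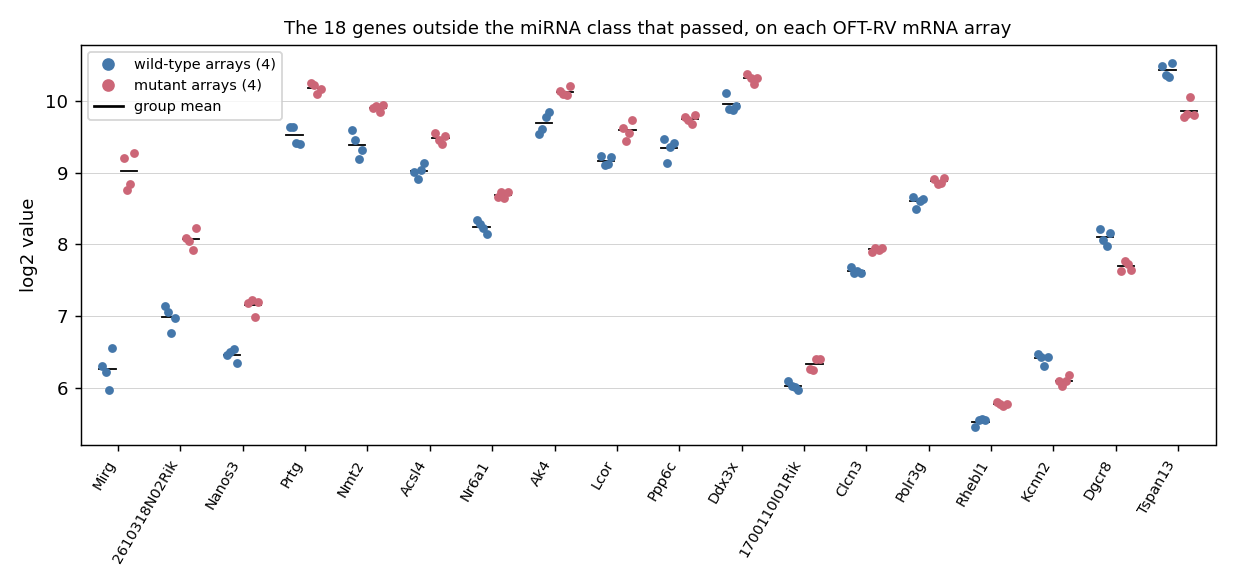
Points are log2 values of single OFT-RV mRNA arrays for the 18 genes outside the miRNA class that passed, in order of change from Mirg at 2.76 to Tspan13 at -0.57, and short lines are group means. In each gene the 4 mutant arrays lie apart from the 4 wild-type arrays, by far less in most genes than in Mirg and 2610318N02Rik.

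The calls of these genes were not equally firm. Of 16 protein-coding genes, 2610318N02Rik, Acsl4, Nanos3, Nr6a1, Prtg and Tspan13 passed under every one of 17 alternative settings, and Mirg under each of 16. Rhebl1 lost its call in 13 of 16 settings, 1700110I01Rik in 9 of 16, Polr3g in 10 and Ddx3x in 9 of 17, and Kcnn2 and Ppp6c in 8 of 17. Leaving out an array gave 9 to 21 protein-coding genes, with 9 without mutant array 1. With all 4 mRNA groups in 1 fit 40 protein-coding genes passed, and with array weights 28.

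Several changes differed between OFT-RV and the progenitor tissue. The 2 tissues appear to have been normalized separately, so the test compared mutant minus wild-type differences and not levels. Of 20842 genes, 44 had a change that differed, or 0.211%, of which 34 were miRNA genes that rose in OFT-RV. Of the 18 genes outside the miRNA class 9 differed. The change of 2610318N02Rik was 1.09 in OFT-RV and 0.10 (SE 0.11) in aSHF, a difference of 0.99 (adjusted p = 0.00200). Prtg changed by 0.66 and 0.13 (SE 0.05, difference 0.54, adjusted p = 0.00641), and Nanos3 by 0.69 and 0.07 (SE 0.07, difference 0.62, adjusted p = 0.00374). Tspan13 changed by -0.57 and -0.02 (SE 0.04, difference -0.55, adjusted p = 0.00374). Mirg rose in both tissues, by 2.76 and by 1.49 (SE 0.12), and differed by 1.27 (adjusted p = 0.00374). Acsl4, Nmt2, Ppp6c and 1700110I01Rik were the other 4 to differ, with differences of 0.36 to 0.51. For Nr6a1, at 0.44 and 0.20 (SE 0.08), and for Dgcr8, at -0.41 and -0.12 (SE 0.05), the difference did not pass.

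Of the miRNA machinery genes examined, only Dgcr8 passed. Of 20 machinery genes Dgcr8 fell, none rose and 14 were higher, with a median of 0.039, while 8949 of all 20842 genes were higher. The unadjusted p was under 0.05 for 4 of the 20, against 1216 of all genes. Tnrc6a, the scaffold that links Argonaute to mRNA decay, read 9.10, 8.87, 8.95 and 8.92 on wild-type arrays and 9.35, 9.22, 9.20 and 9.33 on mutant arrays. The groups did not overlap, which held for 3.59% of all genes. The change of Tnrc6a, 0.32 (SE 0.06), had a limma adjusted p of 0.0546, just outside the threshold. Its paralog Tnrc6b was at 0.19 (SE 0.06), and Lin28b, an RNA-binding protein that blocks let-7 maturation, at 0.17 (SE 0.07). Drosha was at 0.061 (SE 0.06), Dicer1 at 0.02 (SE 0.05) and Ago2 at 0.0036 (SE 0.04). Among 7 measured long host RNAs Mirg and 2610318N02Rik rose and the others were between -0.0046 (H19) and 0.17 (Dleu2).

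Textbook targets of miRNAs were examined by family. Of 20 let-7 targets 2 rose, Prtg and Nr6a1, 15 were higher, and the median was 0.10 against -0.011 over all genes. Both genes were placed on the list with their change in these data already known, so they lend it no support. The growth regulators Ccnd1, a cyclin of the first gap phase, at 0.26 (SE 0.06), and Arid3b, at 0.16 (SE 0.05), did not overlap between genotypes and did not pass. In 5 of the 20 targets, Prtg and Nr6a1 included, the genotypes did not overlap, against 3.59% of all genes. Without Prtg and Nr6a1, a setting chosen after the data were seen, 13 of 18 targets were higher, with a median of 0.079. None of the 18 passed by limma and 6 had an unadjusted p under 0.05. Of all 20842 genes 8949 were higher and 1216 had an unadjusted p under 0.05. On the miRNA arrays let-7a-5p was at -0.63 (SE 0.54), let-7d-5p at -0.48 (SE 0.34) and let-7f-5p at -0.23 (SE 0.08). None of these 3 passed by limma, and let-7f-5p was dim, at a wild-type mean of 1.06. The mean of these 18 was 8.92 to 9.00 on wild-type arrays and 9.03 to 9.09 on mutant arrays. Hmga2, another let-7 target, was at -0.0044 (SE 0.05). Of 21 targets of the miR-17 and miR-302 families none passed by limma and 10 were higher, with a median of -0.0042, although Ccnd1 and the cell cycle factor E2f3, at 0.27 (SE 0.095), are among them. At an unadjusted p under 0.05 this list had 2 genes. Of 18 targets of miR-1 and miR-133 none passed by limma, 4 had an unadjusted p under 0.05 and 8 were higher, with a median of -0.0080.

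Changes of genes that build the heart tube were small, and none of them passed. Of 24 sarcomere genes none passed and 13 were higher, with a median of 0.00050. The largest of their changes was that of Xirp1, an actin-binding protein of intercalated discs, at 0.15 (SE 0.05), and the others lay between -0.062 and 0.08. Of 20 core cardiac transcription factors none passed, and Myocd, a cofactor of serum response factor, at 0.17 (SE 0.05), was the only one whose genotypes did not overlap, against 3.59% of all genes. Of 27 regulators of the outflow tract and second heart field none passed and 14 were lower. They included Smarcd3, a subunit of the chromatin complex BAF, at 0.13 (SE 0.05), the growth factors Tgfb2 and Fgf8, each at 0.10 (SE 0.05), and Isl1 at -0.23 (SE 0.17). The unadjusted p was under 0.05 for 1 gene in each of these 3 lists, against 1216 of all 20842 genes. Of 18 chamber and trabecular genes 14 were lower and none passed, with no unadjusted p under 0.05 and Nppb, a natriuretic peptide, at 0.24 (SE 0.11). Of 13 smooth muscle genes 9 were higher and none passed, with 2 at an unadjusted p under 0.05.

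Of 24 genes of calcium handling and ion channels 17 were lower, against 57.1% of all genes, Kcnn2 fell and none rose. The median was -0.024, and 6 had an unadjusted p under 0.05, against 1216 of all 20842 genes. Pln, which restrains calcium uptake into the sarcoplasmic reticulum, was at 9.92 ± 0.10 in wild-type and 9.66 ± 0.07 in mutant arrays (SD, n = 4), and Casq2, the calcium buffer of that store, at 5.90 ± 0.07 and 5.69 ± 0.05. Their groups did not overlap, and neither passed (limma adjusted p = 0.155 and 0.187). In 4 of the 24 genes the groups did not overlap, each lower in mutants, against 3.59% of all genes in either direction. The mean of the list was 7.82 to 7.88 on wild-type arrays and 7.74 to 7.80 on mutant arrays. Of atrial and inflow genes, those of a neighbouring tissue, 13 of 15 were lower and none passed by limma (3 at an unadjusted p under 0.05). Nr2f2, an atrial nuclear receptor, was at -0.29 (SE 0.07), the vessel factor Angpt1 at -0.30 (SE 0.08) and Hcn4, a pacemaker channel, at -0.15 (SE 0.06). The mean of the atrial and inflow list was 7.81 to 7.83 on wild-type arrays and 7.69 to 7.79 on mutant arrays, and its part in the fall of Kcnn2 was not tested.

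**Figure D5:**
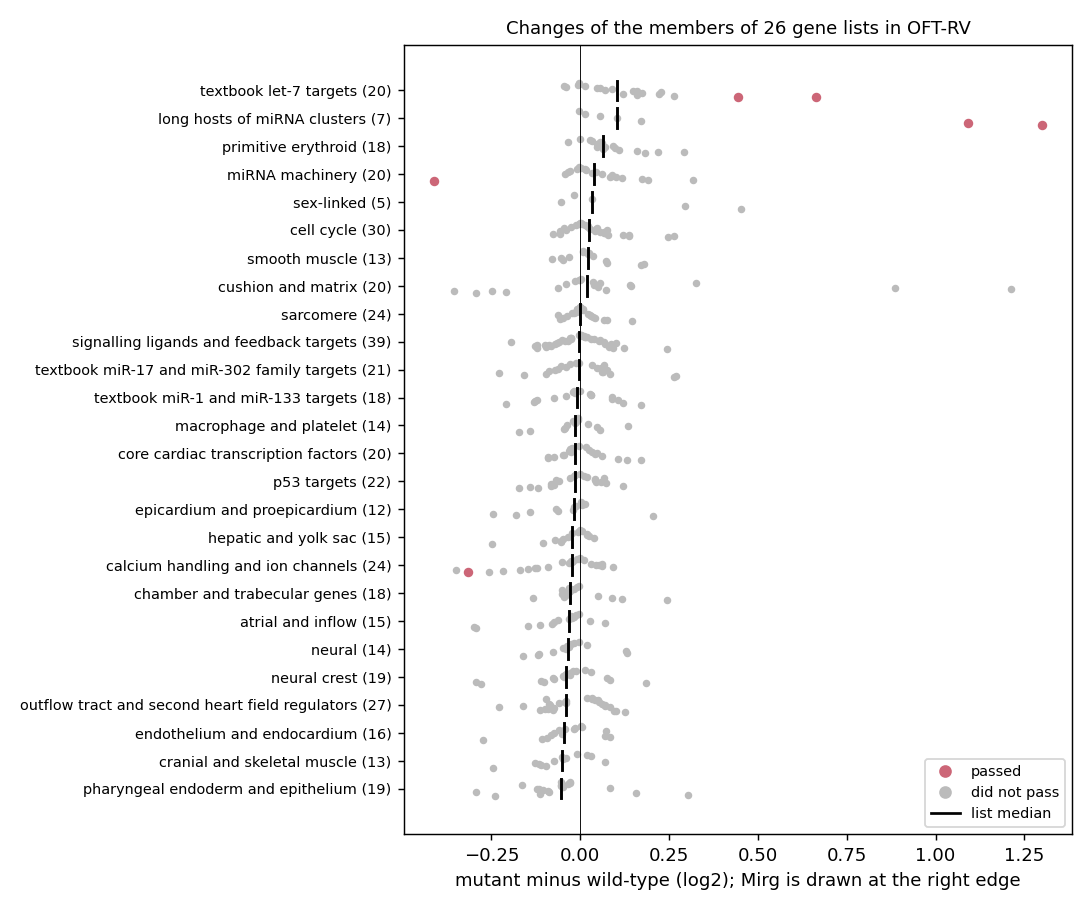
Each row is a gene list with its number of measured members, each point a member's mutant minus wild-type change in log2, and each bar the list's median. Medians run from -0.055 for pharyngeal endoderm and epithelium to 0.10 for let-7 targets, and the points that passed are Dgcr8, Mirg, 2610318N02Rik, Kcnn2, Prtg and Nr6a1. Mirg is drawn at the right edge.

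Markers of other cell types in or beside the tissue did not pass, and their counts of lower genes stand beside 57.1% over all genes. In the list of endothelium and endocardium 11 of 16 genes were lower, and Cldn5, a claudin of endothelial junctions, was at 6.80 ± 0.04 in wild-type and 6.53 ± 0.11 in mutant arrays (SD, n = 4, adjusted p = 0.114). Of 19 neural crest genes 14 were lower, among them the neuregulin receptor Erbb3 at -0.28 (SE 0.07) and the transcription factor Twist1 at -0.29 (SE 0.08), while the semaphorin receptor Plxna4 was at 0.19 (SE 0.05). Of 19 genes of pharyngeal endoderm and epithelium 16 were lower, with the pouch factor Pax1 at -0.24 (SE 0.07) but the keratin Krt18 at 0.30 (SE 0.10). Of 18 primitive erythroid genes 16 were higher, with a median of 0.063, although the means of the list overlapped, at 8.56 to 8.79 on wild-type and 8.63 to 8.90 on mutant arrays. Of 12 epicardial genes 8 were lower, of 14 neural genes 11, of 13 cranial and skeletal muscle genes 10, of 15 hepatic and yolk sac genes 9 and of 14 macrophage and platelet genes 10. The unadjusted p was under 0.05 for 1 to 3 genes in each of these 9 lists, against 1216 of all 20842 genes.

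Proliferation and stress genes moved little. Of 30 cell cycle genes 21 were higher and none passed by limma, with a median of 0.025. At an unadjusted p under 0.05 there were 5, against 1216 of all 20842 genes. In 5 the genotypes did not overlap, against 3.59% of all genes. Cdk6, a kinase that drives entry into the cycle, was at 8.34 ± 0.06 in wild-type and 8.59 ± 0.05 in mutant arrays (SD, n = 4) with groups that did not overlap (change 0.25, SE 0.05, adjusted p = 0.0602). Of 22 p53 targets 12 were lower and none passed, with Gadd45a, a gene of DNA damage and growth arrest, at -0.17 (SE 0.05) and 1 gene at an unadjusted p under 0.05. Of 39 signalling ligands and feedback targets 20 were lower and none passed, with Wnt2, a ligand of cardiac progenitors, at 0.24 (SE 0.06) and 2 at an unadjusted p under 0.05.

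A single array carried a group of matrix genes. Lum, a keratan sulfate proteoglycan, read 4.23 to 4.43 on wild-type arrays, 4.27, 4.56 and 4.33 on mutant arrays 1 to 3 and 8.92 on mutant array 4. Postn, a matrix protein of valve cushions, read 9.48 on mutant array 4 against 5.38 to 5.75 on the other 7, Dcn, a small matrix proteoglycan, 8.48 against 5.30 to 6.42, and Prss35, a secreted protease-like protein, 8.15 against 6.02 to 6.59. Bnc1, at 6.68, and Gpr50, at 6.32, were also highest on it without overlap, and so was Mir376a at 7.16 against 5.66 to 6.24 on the other mutant arrays. Akr1e1 was low on wild-type array 3 alone, at 7.49 against 8.47 to 8.78. Mutant array 4 was the only array that stood more than 1 log2 unit above all others in any gene. The mean of the 20 cushion and matrix genes was 8.48 on it and 7.71 to 7.97 on the other 7 arrays. No gene of that list passed, and the unadjusted p was under 0.05 for 2 of its genes. Of the genes named above, only Mir376a passed (change 2.51, SE 0.23, limma adjusted p = 0.000133). Without mutant array 4 there were 83 genes that passed, of which 81 were among the 93.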

How the data were processed

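RNA pooled by genotype was measured on Affymetrix mRNA arrays (4 per genotype in each tissue) and miRNA arrays (3 per genotype in OFT-RV). The deposited array values are log2 values per probe set, made by the authors with RMA (R, oligo; per the submitters' processing notes, which give no version). Array medians differ between tissues, so each tissue appears to have been normalized on its own. The authors' deposited comparison tables hold log2 changes, p-values and adjusted p-values per gene, per the file headers. Gene names, types and Ensembl identifiers came from these tables, by matching a gene's mean and change in both tissues to a probe set within 1e-06, which placed all 20889 listed genes. Of these, 45 shared a probe set and 2 were second listings, and 20842 were kept. A further 30 columns in 4 tables carried names that match no sample label and were not used.

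Genotypes were compared with limma 3.58.1 in R 4.3.3 (lmFit and eBayes, two-sided), with Benjamini-Hochberg adjustment over all named genes and an adjusted p threshold of 0.05. SE is the moderated standard error. Rose and fell are used of genes that passed. The tissue difference was a contrast over all 16 mRNA arrays. Positions and sequences are those of RefSeq on GRCm38.p6. The fit was tested on simulated data. The number of arrays limits the precision. Nothing says that pools of a group share no litters, so p-values measure the spread between these pools.

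The genes named are Dgcr8, every passing gene outside the miRNA class, the 20 miRNA genes with the largest change and their cluster members, measured hosts of rising miRNA genes, up to 4 members of each list with the smallest p, and the 10 genes in which 1 array lies farthest from the other 7. Marker genes read for tissue identity, and other names outside this rule, were chosen after their values were seen. The genes, lists and tests were chosen with earlier results of these data known. Alternatives were quantile normalization, median centring, array weights, a trended robust prior, dim probe sets left out, other sets for the adjustment, all 4 mRNA groups in 1 fit, a replicate block and leaving out each array.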

Additional observations from a re-analysis of the deposited data

Results flagged for a closer look

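Of 74 groups of 4 arrays from genes named for another reason, 4 had an array far from the other 3 by Dixon's criterion, close to the 1 in 20 that chance gives. A further 20 groups came from genes chosen because 1 array stood apart, so their 8 such arrays follow from that choice. Mutant array 4 was high for Lum (8.92), Postn (9.479), Dcn (8.48), Prss35 (8.147) and Bnc1 (6.679). Mutant array 3 was high for Tspan13 (10.06). Wild-type array 1 was low for Ddx3y (5.062), Uty (4.311) and Rhebl1 (5.451), wild-type array 2 was low for Mir133a-2 (4.439), wild-type array 3 was low for Akr1e1 (7.487), and wild-type array 4 was high for Mir30d (6.141).

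Of the 18 genes outside the miRNA class that passed in OFT-RV, 9 had a change that differed from the change in aSHF by limma's test of the difference. The OFT-RV change minus the aSHF change was 1.27 for Mirg, 0.992 for 2610318N02Rik, 0.619 for Nanos3, 0.535 for Prtg, 0.512 for Nmt2, 0.461 for Ppp6c, 0.454 for Acsl4, 0.357 for 1700110I01Rik and -0.549 for Tspan13. The adjusted p of these differences ran from 0.00200 (2610318N02Rik) to 0.0461 (Ppp6c).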

How the results depend on the processing

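With dim probe sets left out, 54 genes passed in place of 93, 37 miRNA genes in place of 75, and 22 tissue differences in place of 44. Dimness was judged on the mean of both genotypes, so rising genes could be kept through their mutant values. The count of 16 protein-coding genes became 28 with array weights, 40 with all 4 mRNA groups in 1 fit and 6 with the adjustment over protein-coding genes only. Leaving out single arrays gave 77 to 88 genes, 9 to 21 protein-coding genes (9 without mutant replicate 1), 64 to 70 miRNA genes, 1 to 9 mature miRNAs and 36 to 44 tissue differences. It left Dgcr8 between -0.45 and -0.37. Dgcr8 kept its change of -0.41 but had an adjusted p of 0.0570 over all probe sets and 0.0592 over protein-coding genes only. The mean change of Postn, 0.89 over all arrays, ran from -0.12 (without mutant replicate 4, on which alone it was high) to 1.24 when single arrays were left out. Among single genes, 3348 values under an alternative kept direction and side of the threshold, 111 lost the call, 18 gained it, 3 moved and 1, that of Postn, changed sign.

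Replicate numbers are shared between genotypes, but same-numbered arrays correlated at 0.239, 0.0472, 0.130 and 0.0190 in their deviations, and not every array correlated best with its own number. With the replicate number as a block, 95 genes, 21 protein-coding genes, 73 miRNA genes, 9 mature miRNAs and 49 tissue differences passed, and Dgcr8 had an adjusted p of 0.0351. Signal near background limits the changes of dim miRNA genes, of which 55 of 75 were under the median probe set in wild-type arrays.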

Other observations

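Several genes lay just outside the threshold with genotypes that did not overlap, and all were chosen after their values were seen. Mapk6, an atypical MAP kinase, read 9.88, 9.91, 9.91 and 9.92 on wild-type arrays and 10.14, 10.07, 10.17 and 10.11 on mutant arrays (change 0.22, SE 0.04, limma adjusted p = 0.0649). Ddc, the enzyme that makes dopamine, was at 0.39 (SE 0.07, limma adjusted p = 0.0547), and Pcgf5, a Polycomb group protein, at 0.23 (SE 0.04, limma adjusted p = 0.0563). On the lower side, Smad9, which transduces BMP signals, was at -0.28 (SE 0.06, limma adjusted p = 0.0803), with 7.83 to 7.89 on wild-type arrays and 7.41 to 7.65 on mutant arrays.

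Among miRNA genes that did not pass were some known from heart, progenitor or blood cells, also chosen after their values were seen. Mir208a and Mir499, which lie in myosin heavy chain genes, were at 0.12 and 0.02, Mir302a of pluripotent cells at 0.04, and Mir451a of red cells, which is known to bypass Dicer, at -0.02.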
